A study of Homo sapiens with 4 samples.

Results

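Atypical teratoid/rhabdoid tumors (AT/RT), aggressive childhood brain tumors, fall into subgroups that include AT/RT-TYR, AT/RT-SHH and AT/RT-MYC. The 9 genes described here, *TYR*, *DCT*, *MLANA*, *MITF*, *OTX2*, *BMP4*, *CLIC6*, *GLI2* and *FABP7*, are used to tell AT/RT-TYR and AT/RT-SHH tumors from AT/RT-MYC tumors. They were chosen by name, with earlier results of these data known. All 9 were among the 18449 gene symbols of the count table and the 18066 with a nonzero total that were tested. RNA was sequenced from BT-16 and CHLA-266, a pair of established cell lines that both belong to AT/RT-MYC, so the genes were measured in cells of the subgroup that they are meant to mark by absence. Untreated cells of each line had received no drug. Treated cells of each line had received 1 µM doxorubicin, 5 µM etoposide and 1 µM vincristine, one after the other on consecutive days, and were the survivors that regrew over the following weeks. There was 1 library per line and condition, 4 in all, and the 2 lines stand as replicates of a condition. Each line derives from 1 patient and nothing in the labels marks separate cultures, so the spread between libraries is the spread between these lines.

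The 9 genes have different roles. *TYR* encodes tyrosinase, the enzyme that starts melanin synthesis, *DCT* encodes dopachrome tautomerase, which acts further along the same route, and *MLANA* encodes a protein of the melanosome, the organelle in which melanin is made. *MITF* encodes the transcription factor that switches on these pigment genes in melanocytes and in the retinal pigment epithelium, and *OTX2* encodes a homeobox transcription factor of the forebrain, the eye and the choroid plexus. *BMP4* encodes a secreted ligand of the bone morphogenetic protein (BMP) pathway, and *CLIC6* encodes a member of the chloride intracellular channel family. *GLI2* encodes a transcription factor that carries the Hedgehog signal into the nucleus, and *FABP7* encodes the fatty acid binding protein of radial glia, the stem cells of the developing brain.

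The total count per library ran from 49849258 to 75087194, with the smaller totals after treatment. Even so, the treated libraries held more symbols with at least 1 count, 17815 and 17114, than the untreated ones, 16079 and 15464. Most counts from 1 to 20 were even (20.5% to 34.2% were odd in a library), a pattern that counting both mates of every read pair would give. The intervals given here cover counting error only, and they are too narrow if pairs were counted so. *MYC*, the gene from which AT/RT-MYC takes its name, had 14275 counts before and 6804 after treatment in BT-16, with 11515 before and 7505 after it in CHLA-266. *MYC* was lower after treatment (log2 fold change -0.59 ± 0.17 standard error, SE, with an adjusted *p* of 0.0289 in edgeR). This and all further calls come from the quasi-likelihood test of edgeR, with *p* values adjusted after Benjamini and Hochberg. *SMARCB1*, the gene whose loss defines most AT/RT, had 1394, 981, 1313 and 827 counts in the same order, and a count per gene does not show whether these reads come from a complete transcript. Levels are given here as CPM, the counts scaled to a common library size after TMM normalization, and a gene is called changed at an adjusted *p* value under 0.05 over all 18066 genes.

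The stretches before the start sites of the pigment genes are shown because *MITF*, the factor known to bind there, is itself one of the 9 genes. RefSeq promoters (GRCh38.p14) were matched for 8 of the 9 genes by symbol, and *CLIC6* had no entry. The 250 bases before the start were searched on both strands for CATGTG, the core of the M-box bound by MITF, and for TAATCC, a motif of OTX factors. Capitals mark the matches, with CACATG as the M-box core on the other strand, and all 3 stretches are written 5′ to 3′ on the strand of the gene.
TYR, chr11:89177625-89177874, plus strand: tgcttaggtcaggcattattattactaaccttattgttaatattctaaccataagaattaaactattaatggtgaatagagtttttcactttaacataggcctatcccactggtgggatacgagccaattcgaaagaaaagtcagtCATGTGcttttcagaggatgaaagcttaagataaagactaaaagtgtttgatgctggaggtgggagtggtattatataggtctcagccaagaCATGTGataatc
DCT, chr13:94479683-94479932, minus strand: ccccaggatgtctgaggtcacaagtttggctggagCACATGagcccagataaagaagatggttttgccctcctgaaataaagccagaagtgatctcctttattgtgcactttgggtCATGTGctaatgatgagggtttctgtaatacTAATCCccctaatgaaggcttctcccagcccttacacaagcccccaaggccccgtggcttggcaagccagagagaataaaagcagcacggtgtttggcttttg
MLANA, chr9:5890639-5890888, plus strand: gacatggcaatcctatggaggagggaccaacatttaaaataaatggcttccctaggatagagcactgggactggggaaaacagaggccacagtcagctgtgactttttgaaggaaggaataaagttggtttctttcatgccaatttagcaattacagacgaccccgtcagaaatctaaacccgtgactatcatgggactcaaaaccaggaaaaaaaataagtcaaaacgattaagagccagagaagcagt
In *TYR* the M-box core began 104 and 12 bases before the start. In *DCT* it began 134 bases before the start and, on the other strand, 215 bases before it, and the OTX motif began 103 bases before it. The stretch of *MLANA* held neither motif. A second *DCT* start and all 3 *MITF* starts in the table held no match either, and 1 of 2 *OTX2* starts held an M-box core on the other strand, 239 bases before it. Of all 35116 promoters in the table, 9.42% held the M-box core and 5.62% the OTX motif. The GLI motif GACCACCCA, held by 0.199% of the promoters, was in none of the stretches of the 8 genes. These matches describe the letters of the reference only.

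Of the 3 pigment genes, the enzymes *TYR* and *DCT* were near 0 before treatment and had 16 to 57 counts after it, whereas *MLANA* was detected throughout. *TYR* (ENSG00000077498, hg38 chromosome 11, 89177875 to 89295759, plus strand) had 0 counts before and 41 after treatment in BT-16, with 3 before and 32 after it in CHLA-266. Both treated libraries, at 0.709 and 0.616 CPM, lay above both untreated libraries, at 0 and 0.0487 CPM. Against a floor of 3 counts, *TYR* was 16.3-fold higher after treatment in BT-16, with a lower 95% limit of 12.7-fold. In CHLA-266 the ratio was 12.6-fold (95% interval 3.95 to 64.5, exact Clopper-Pearson). Across both cell lines the call just missed the threshold in edgeR (adjusted *p* = 0.0528), and over 9 alternative fits the adjusted *p* values of edgeR, DESeq2 and limma ran from 0.0142 to 0.0678, with 7 of them under 0.05. In the fits that left out 1 library each, *TYR* was called only without the untreated CHLA-266 library (adjusted *p* = 0.033 in edgeR). The last exons of *TYR* have a near-identical copy elsewhere in the genome, the pseudogene *TYRL*, so reads from them are uncertain. Sequencing of bulk RNA cannot tell apart a few cells with much of an RNA from many cells with little of it.

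*DCT* (ENSG00000080166, chromosome 13, 94436811 to 94479682, minus strand) had 6 counts before and 57 after treatment in BT-16, with 3 before and 16 after it in CHLA-266. The conditions did not overlap, at 0.0870 and 0.0487 CPM before and 0.986 and 0.308 CPM after treatment. The log2 ratio of treated to untreated was 3.50 in BT-16 (95% interval 2.29 to 5.01) and 2.66 in CHLA-266 (0.85 to 5.08, and -0.08 to 5.52 with halved counts). *DCT* did not pass the test across both lines (log2 fold change 3.21 ± 1.32 SE, edgeR adjusted *p* = 0.0888), and of 9 alternative fits 1 called it, DESeq2 without the cell line in the model (adjusted *p* = 0.0459). *MLANA* (ENSG00000120215, chromosome 9, 5890889 to 5910606, plus strand) had 85 counts before and 56 after treatment in BT-16, with 111 before and 74 after it in CHLA-266. It was the only one of the 9 genes whose conditions overlapped, since treated CHLA-266 cells, at 1.42 CPM, lay above untreated BT-16 cells, at 1.23 CPM. Within each line it was lower after treatment by a log2 ratio of -0.35 in BT-16 (-0.86 to 0.16) and -0.34 in CHLA-266 (-0.79 to 0.10), and both intervals include 0. The log2 fold change across both lines was -0.34 ± 0.61 SE (edgeR adjusted *p* = 0.671), and a change of *MLANA* of the size of this error was not detectable here.

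**Figure D1:**
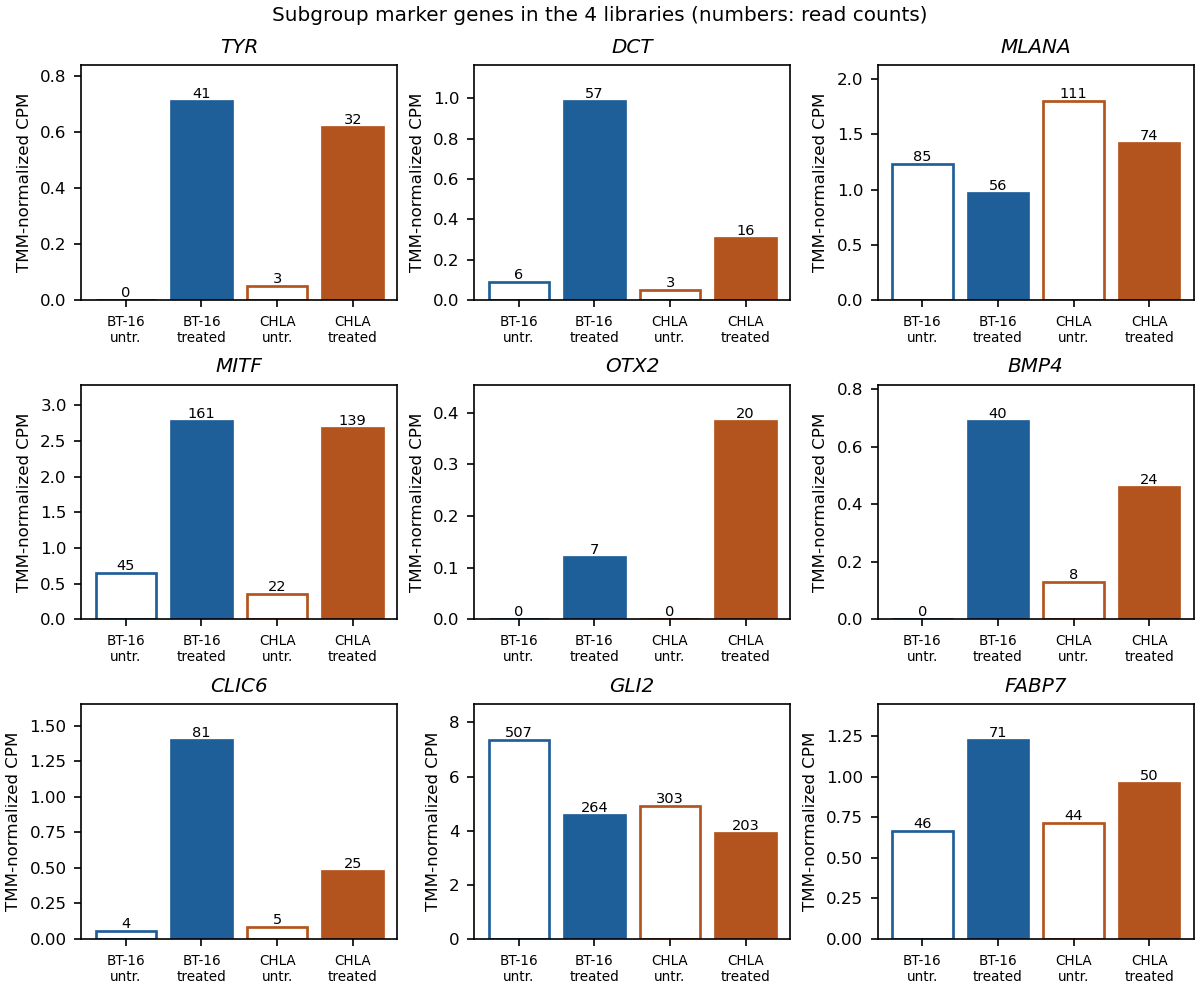
TMM-normalized CPM (vertical axes, linear from 0, a scale for each gene) of the 9 marker genes in each of the 4 libraries, with the read count printed over each bar. Open bars are untreated, filled bars treated, BT-16 is blue and CHLA-266 (written CHLA) orange, and each bar is 1 library without an error bar; 7 genes are higher in both treated libraries than in both untreated ones, *GLI2* is lower in both, and *MLANA* overlaps.

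Among the transcription factors, *MITF* rose. *MITF* (ENSG00000187098, chromosome 3, 69739456 to 69968336, plus strand) had 45 counts before and 161 after treatment in BT-16, with 22 before and 139 after it in CHLA-266. Its level was 0.652 and 0.357 CPM before and 2.79 and 2.68 CPM after treatment, so the treated libraries lay close together and well above the untreated ones. The log2 ratio was 2.09 in BT-16 (95% interval 1.61 to 2.60) and 2.90 in CHLA-266 (2.25 to 3.62). Across both lines the log2 fold change was 2.43 ± 0.61 SE (edgeR adjusted *p* = 0.0163), and *MITF* was called in all 10 alternative fits of edgeR, DESeq2 and limma (adjusted *p* values from 0.00104 to 0.0191). Without the untreated CHLA-266 library, the lowest of the 4, the log2 fold change was 2.06 and the call was lost (adjusted *p* = 0.0543 in edgeR). The gene has several start sites and transcripts that differ between pigment cells and other cells, and a count per gene does not separate them.

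*OTX2* (ENSG00000165588, chromosome 14, 56799905 to 56816693, minus strand) had no count in either untreated library, 7 in treated BT-16 and 20 in treated CHLA-266 cells. It was the only one of the 9 genes without a count in either untreated library, and it reached 0.121 and 0.385 CPM after treatment. Against a floor of 3 counts per library it was 2.78-fold higher in BT-16, 7.90-fold in CHLA-266 and 5.49-fold over both lines. These ratios leave out the counting error of the treated libraries. The lower 95% limits were 1.72-fold in BT-16 and 5.85-fold in CHLA-266. The lower 95% limit of the log2 ratio was 0.78 in BT-16, and -0.34 with halved counts, so in that line the rise was not detectable if both reads of each pair were counted. *OTX2* was not called (adjusted *p* = 0.0919 in edgeR, 0.0551 to 0.196 over 8 alternative fits of edgeR, DESeq2 and limma). Its paralog *OTX1*, a factor of the developing cortex, had 427 counts before and 212 after treatment in BT-16, with 282 before and 94 after it in CHLA-266, and was called lower only with the line as a block (log2 fold change -0.97 and edgeR adjusted *p* = 0.127 without it, -1.04 and 0.0400 with it).

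*BMP4* and *CLIC6* were both within a few counts of 0 before treatment. *BMP4* (ENSG00000125378, chromosome 14, 53949736 to 53958761, minus strand) had 0 counts before and 40 after treatment in BT-16, with 8 before and 24 after it in CHLA-266. The treated libraries, at 0.692 and 0.462 CPM, lay above the untreated ones, at 0 and 0.130 CPM, which themselves differed. Against a floor of 3 counts, *BMP4* was 15.9-fold higher after treatment in BT-16, with a lower 95% limit of 12.35-fold. In CHLA-266 the log2 ratio of *BMP4* was 1.83 (95% interval 0.63 to 3.19). It did not pass the test (log2 fold change 3.13 ± 1.67 SE, edgeR adjusted *p* = 0.170), nor any of 9 alternative fits of edgeR, DESeq2 and limma (adjusted *p* values from 0.0543 to 0.188). Without the untreated CHLA-266 library, which leaves only the untreated library at 0, it was called (adjusted *p* = 0.0452 in edgeR). Exons of *BMP4* overlap those of a gene for a long noncoding RNA on the opposite strand over 506 bases, and how the counting used strand is not stated.

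*CLIC6* (ENSG00000159212, chromosome 21, 34668994 to 34718227, plus strand) had 4 counts before and 81 after treatment in BT-16, with 5 before and 25 after it in CHLA-266. The untreated lines lay close together, at 0.0580 and 0.0812 CPM, and the treated lines further apart, at 1.40 and 0.481 CPM. The log2 ratio was 4.60 in BT-16 (95% interval 3.18 to 6.51) and 2.57 in CHLA-266 (1.16 to 4.31), which are 24.2-fold and 5.92-fold. *CLIC6* was called higher (log2 fold change 3.72 ± 1.14 SE, edgeR adjusted *p* = 0.0344). When the line was added as a block the call was lost (log2 fold change 3.54, edgeR adjusted *p* = 0.0714), while the 8 other alternative fits of edgeR, DESeq2 and limma kept it. It was also lost without untreated BT-16 (adjusted *p* = 0.0886 in edgeR), without treated BT-16 (0.364) and without untreated CHLA-266 (0.0703).

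The 2 genes of Hedgehog signaling and radial glia were detected in every library. *GLI2* (ENSG00000074047, chromosome 2, 120735623 to 120992653, plus strand) was the most abundant of the 9 genes, with 507 counts before and 264 after treatment in BT-16, and 303 before and 203 after it in CHLA-266. At 7.35 and 4.92 CPM before and 4.57 and 3.91 CPM after treatment, it was the only one of the 9 genes with both treated libraries below both untreated ones. The log2 ratio was -0.69 in BT-16 (95% interval -0.91 to -0.47) and -0.33 in CHLA-266 (-0.60 to -0.07, and up to 0.04 with halved counts). *GLI2* was not called (log2 fold change -0.53 ± 0.37 SE, edgeR adjusted *p* = 0.276), and its log2 fold change ran from -0.53 to -0.18 over 10 alternative fits. *FABP7* (ENSG00000164434, chromosome 6, 122779716 to 122784074, plus strand) had 46 counts before and 71 after treatment in BT-16, with 44 before and 50 after it in CHLA-266. Its level was 0.667 and 0.715 CPM before and 1.23 and 0.962 CPM after treatment, with a log2 ratio of 0.88 in BT-16 (0.33 to 1.45) and 0.43 in CHLA-266 (-0.19 to 1.05). *FABP7* was not called either (log2 fold change 0.66 ± 0.71 SE, edgeR adjusted *p* = 0.476).

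**Figure D2:**
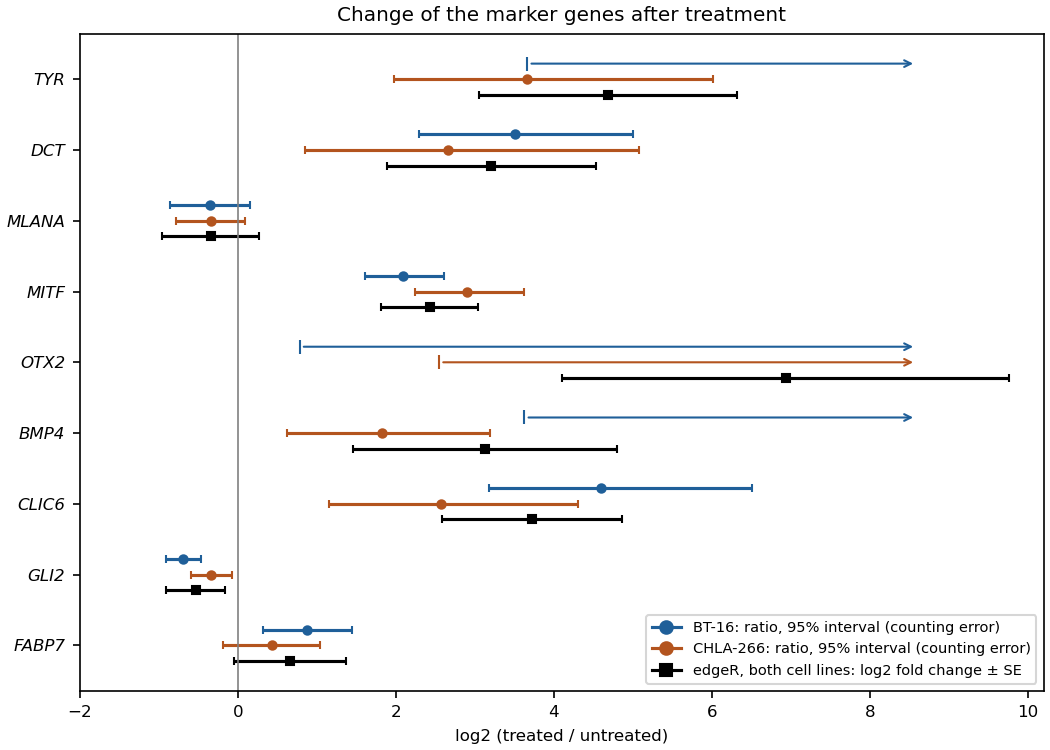
Log2 ratio of treated to untreated cells (horizontal axis) for each marker gene in BT-16 (blue) and CHLA-266 (orange), with exact 95% intervals that cover counting error only, and the log2 fold change of edgeR over both lines ± SE (black). Arrows start at the lower 95% limit where the untreated library had 0 counts; the intervals or lower limits of *TYR*, *DCT*, *MITF*, *OTX2*, *BMP4* and *CLIC6* lie above 0 in both lines, and the intervals of *MLANA* include 0 in both.

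Counted together, 2 of the 9 marker genes (*MITF* and *CLIC6*) were called higher after treatment, beside 16.1% of all genes tested. None was called lower, beside 19.1% of all genes, and none of the 9 was lower at an unadjusted *p* value under 0.05 (0 in edgeR, 0 in DESeq2 and 0 in limma). With the cell line as a block, 1 of the 9 (*MITF*) was called higher beside 17.9% of all genes, and 0 lower beside 23.7%. At an unadjusted *p* value under 0.05, edgeR held 5 of the 9 genes, *TYR*, *DCT*, *MITF*, *OTX2* and *CLIC6*, all higher. The share of all genes at that limit was not counted, and it cannot be under the adjusted shares of 16.1% higher and 19.1% lower. The log2 fold change was positive for 7 genes and negative for *MLANA* and *GLI2*. The median over the 9 genes was 3.13, or 2.46 with *TYR* and *OTX2* set to their lower bounds, beside 0.24 over all genes. Lower bounds in this and later medians are ratios against the floor of 3 counts, without counting error. Lists outside the pathways of the 9 genes had medians of 2.96 (9 macrophage genes), 2.76 (11 genes named for AT/RT-MYC) and 2.25 (8 fibroblast and endothelial genes). With genes set to their lower bounds in the same way, these medians were 2.87, 1.91 and 2.25. The first of these is over 8 macrophage genes, since 1 at the floor in all libraries was left out. For 4 genes of the SWI/SNF complex, to which *SMARCB1* belongs, the median was -0.495. Both treated libraries were above both untreated ones for 7 of the 9 genes, beside 40.2% of all genes, and below them for 1, beside 32.3%. Of the 6 marker genes with a mean under 1 CPM, a limit set after the values were seen, 1 was called higher, beside 20.2% of all genes under that limit.

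Genes that such cells are not known to use also gained counts after treatment. The summed level of 380 olfactory receptor genes, which belong to sensory neurons of the nose, was 7.10 CPM before and 94.0 CPM after treatment in BT-16, with 8.37 before and 68.8 after it in CHLA-266. The log2 ratios of these sums, BT-16 first, were 3.73 and 3.04, beside 3.50 and 2.66 for *DCT*, 4.60 and 2.57 for *CLIC6* and 2.09 and 2.90 for *MITF*. At least 1 count was found for 31.8% of these receptors before and 77.1% after treatment in BT-16, with 23.7% before and 55.0% after it in CHLA-266. The summed level of 94 keratin-associated protein genes, which belong to hair, was 20.8-fold higher in BT-16 and 17.8-fold higher in CHLA-266. The sum of 27 taste receptor genes was 1.60-fold and 1.41-fold higher after treatment. The part of these reads in the results for the marker genes was not tested.

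Per kilobase of exon, the marker genes were set beside the 95th percentile of the olfactory receptors, which was 4.11 counts per kilobase before and 26.3 after treatment in BT-16, with 3.81 before and 21.2 after it in CHLA-266. In untreated cells *GLI2* (65.7 and 39.3 counts per kilobase in BT-16 and CHLA-266), *MLANA* (28.4 and 37.1) and *FABP7* (18.5 and 17.7) were above it in both lines, and *MITF* in BT-16 (6.07) but not in CHLA-266 (2.97). In treated cells *GLI2* (34.2 and 26.3) was above it in both lines, *FABP7* in BT-16 (28.6) and *MLANA* in CHLA-266 (24.7). With the length of all exons, the 6 genes with positive changes of more than 2 on the log2 scale were all under it after treatment. Of these, *MITF* had 21.7 and 18.7 counts per kilobase, *TYR* 15.8 and 12.3, *BMP4* 12.9 and 7.75, *CLIC6* 19.0 and 5.88, *DCT* 7.56 and 2.12, and *OTX2* 2.06 and 5.89. With the longest transcript of each gene as its length, the 95th percentile of the olfactory receptors was again 26.3 and 21.2 in treated cells, and *MITF*, at 33.5 and 29.0 counts per kilobase, was above it in both lines, while the other 5 stayed under it. With the length of all exons, the 95th percentile of 542 genes of 4 such families was 40.5 and 31.5 counts per kilobase after treatment. None of the 9 marker genes passed it in a treated library. Before treatment it was 6.7 and 7.51, and *GLI2*, *MLANA* and *FABP7* passed it in both lines. These families include the taste receptors, whose median was already 39.7 and 31.7 counts per kilobase before treatment. This percentile therefore does not stand for unused genes alone.

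**Figure D3:**
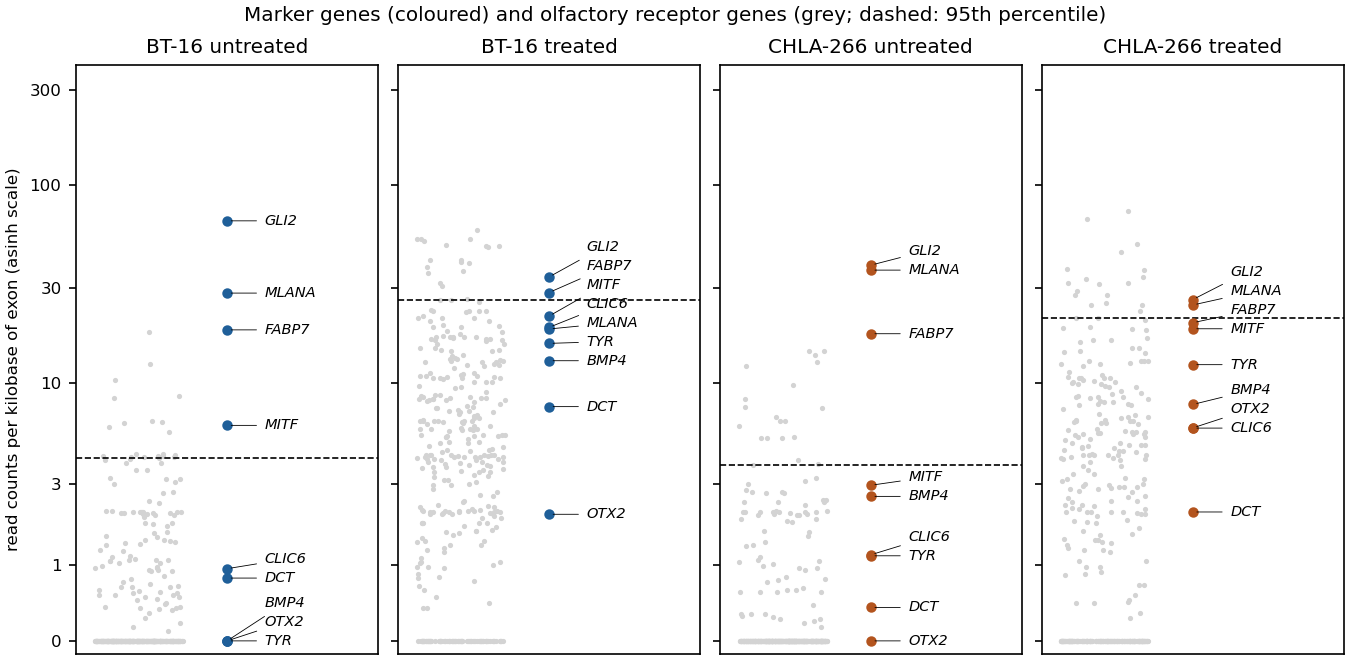
Read counts per kilobase of exon (vertical axis, inverse hyperbolic sine scale) of the 9 marker genes (blue in BT-16, orange in CHLA-266) and of 380 olfactory receptor genes (grey, 1 point each, spread sideways only for display) in each library. The dashed line is the 95th percentile of the olfactory receptors, which lies at 4.11 and 3.81 in untreated and at 26.3 and 21.2 in treated cells; *MITF*, *TYR*, *BMP4*, *CLIC6*, *DCT* and *OTX2* lie under it in both treated libraries with this length.

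The order of the levels was taken in CPM per kilobase of exon, with the values of both lines as the range. In untreated cells *GLI2* (0.638 to 0.952) stood above *MLANA* (0.411 to 0.602), *FABP7* (0.268 to 0.287) and *MITF* (0.0482 to 0.0879), and these 4 ranges did not overlap. Below them, the ranges of *BMP4*, *CLIC6*, *TYR* and *DCT* overlapped their neighbours, with 0.042 as the highest value, and *OTX2* was at 0. In treated cells *GLI2* (0.506 to 0.592) was still first, and the range of *MLANA* (0.323 to 0.475) overlapped both that of *FABP7* (0.387 to 0.494) and that of *MITF* (0.361 to 0.375), which lay apart from each other. *TYR* (0.237 to 0.274), *CLIC6* (0.113 to 0.329) and *BMP4* (0.149 to 0.223) followed with overlapping ranges, and *DCT* (0.0408 to 0.131) and *OTX2* (0.0356 to 0.113) came last. The 9 genes thus lay closer together after treatment. Their summed level was 10.05 CPM before and 13.46 CPM after treatment in BT-16, with 8.11 before and 11.2 after it in CHLA-266, and *GLI2* and *MLANA* made up most of the sum before treatment.

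Between the cell lines, with treatment as a term in the model, 0 of the 9 genes were called, beside 2.30% of all genes. Of the 9, 0 had an unadjusted *p* value under 0.05 in edgeR, in DESeq2 or in limma. The log2 differences of CHLA-266 to BT-16 ran from -1.30 for *DCT* to 1.45 for *OTX2*, with adjusted *p* values from 0.869 to 0.999 in edgeR. The error was smallest for *GLI2*, the best counted of them, with a difference of -0.40 (SE 0.35). It was largest for *OTX2* (SE 3.62), and for genes with such errors even large differences were not detectable. A difference between the lines in the response to treatment was not testable with 1 library per line and condition.

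The genes whose pattern over the 4 libraries was most like that of a marker gene were sought among 12619 others with at least 10 counts in every library, by the root mean square difference of centred log2 CPM. Nearest to *MITF* were *PCDHB15* (0.0534), *CDH23* (0.101) and *RAPGEF3* (0.106), and nearest to *MLANA* were *FLRT1* (0.0429), *CEP170* (0.0498) and *EDEM3* (0.0534). Nearest to *GLI2* were *PPP2R1A* (0.0191), *KRT10* (0.0303) and *DCAF11* (0.0362), and nearest to *FABP7* were *LIPT1* (0.0305), *SEC31B* (0.0308) and *LIME1* (0.0341). The other 5 marker genes had under 10 counts in at least 1 library and were left out.

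Among 130 other genes of the lists around the 9 marker genes, 23 were called higher and 16 lower, beside the 16.1% and 19.1% of all genes given above. Other pigment cell genes moved in both directions. Of 21 listed melanocyte genes, 4 were called higher and 2 lower, with a median log2 fold change of 1.55. *SOX10*, the neural crest factor that acts upstream of *MITF*, had 28 counts before and 159 after treatment in BT-16, with 45 before and 130 after it in CHLA-266 (log2 fold change 2.21 ± 0.61 SE, edgeR adjusted *p* = 0.0232). *GPNMB*, a melanosome glycoprotein that macrophages also make, had 11 counts before and 85 after treatment in BT-16, with 4 before and 134 after it in CHLA-266 (log2 fold change 4.14, edgeR adjusted *p* = 0.00694). *MLPH*, which links melanosomes to the motor that carries them, went from 1 to 81 counts in BT-16 cells and 0 to 50 in CHLA-266 cells (adjusted *p* = 0.00564 in edgeR). *RAB27A*, the partner of *MLPH* in that link, fell from 1055 to 294 counts in BT-16 cells and 1020 to 281 in CHLA-266 cells (log2 fold change -1.60, edgeR adjusted *p* = 0.00257). *CDK2*, listed because melanocytes express it under *MITF* but a cell cycle kinase in all dividing cells, fell from 2132 to 90 counts in BT-16 cells and 1613 to 124 in CHLA-266 cells (log2 fold change -3.86, edgeR adjusted *p* = 4.82e-05). *KITLG*, the ligand of the receptor KIT, held the highest level of the list and was not called (log2 fold change 0.32, edgeR adjusted *p* = 0.338).

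The close relatives of *TYR* and *MITF* gave no call. *TYRP1*, the third enzyme of the tyrosinase family, had no count in either untreated library, 44 in treated BT-16 and 4 in treated CHLA-266 cells. It was not called over both lines (adjusted *p* = 0.0554 in edgeR). Against a floor of 3 counts it was 17.5-fold higher in BT-16, with a lower 95% limit of 13.6-fold. In CHLA-266 the lower 95% limit of the log2 ratio of *TYRP1* was -0.35, so no rise was detectable there. *TFEB*, a relative of *MITF* that governs lysosomes, had 254 counts before and 203 after treatment in BT-16, with 136 before and 114 after it in CHLA-266 (log2 fold change -0.05, edgeR adjusted *p* = 0.947). *TFEC*, a further relative, had 4, 40, 0 and 2 counts in the same order of libraries (adjusted *p* = 0.221 in edgeR). Of 10 genes of the MITF relatives, their partners and the organelle machinery of melanosomes, 1 was called higher and 2 lower, with a median log2 fold change of 0.01. *HPS1*, which takes part in building lysosome-related organelles, rose (log2 fold change 0.73, adjusted *p* = 0.0128), and *BLOC1S1*, which does so too, fell (-1.88, adjusted *p* = 0.0223), as did *CREB1*, an activator of *MITF* (-0.59, adjusted *p* = 0.0214, all in edgeR).

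Of 25 listed genes of the BMP pathway, 5 were called higher and 8 lower, with a median log2 fold change of -0.21. Secreted proteins were among the genes that rose. *NOG*, an antagonist that binds BMP4, had 25 counts before and 230 after treatment in BT-16, with 2 before and 188 after it in CHLA-266 (log2 fold change 4.24, edgeR adjusted *p* = 0.00874). *FST*, an antagonist of activins and some BMPs, had 12 counts before and 588 after treatment in BT-16, with 32 before and 148 after it in CHLA-266 (log2 fold change 4.23, edgeR adjusted *p* = 0.00443). *BMP6*, a ligand, rose from 145 to 339 counts in BT-16 cells and 106 to 406 in CHLA-266 cells (log2 fold change 1.84, edgeR adjusted *p* = 0.00838). Inside the cell, *SMAD9*, which relays the signal, fell from 2053 to 670 counts in BT-16 cells and 1662 to 328 in CHLA-266 cells (log2 fold change -1.66, edgeR adjusted *p* = 0.00402). *SMAD6*, an inhibitory SMAD (-1.11, adjusted *p* = 0.00909), *SMAD4*, the shared partner (-0.64, adjusted *p* = 0.0215), and *ID3*, a target gene and the most abundant of the list (-0.74, adjusted *p* = 0.0358, all in edgeR), were lower too.

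Of 20 listed Hedgehog genes besides *GLI2*, 1 was called higher and 0 lower (median log2 fold change 0.48, 1 lower at an unadjusted *p* value under 0.05 in edgeR, and DESeq2 and limma called 0 lower). The gene called was *MYCN*, a target of the pathway and a known gene of AT/RT-SHH (adjusted *p* = 0.0305 in edgeR). It had no count in either untreated library, 58 in treated BT-16 and 8 in treated CHLA-266 cells. Against a floor of 3 counts it was 23.1-fold higher in BT-16 (lower 95% limit 18.2-fold) and 3.16-fold higher in CHLA-266 (2.02-fold). In CHLA-266 the lower 95% limit of the log2 ratio was 1.02, and -0.35 with halved counts. The list held 3 genes that were lower in CHLA-266 than in BT-16, *GLI3* (log2 difference -2.03, adjusted *p* = 5.03e-06), *GLI1* (-1.16, adjusted *p* = 0.0416) and *PTCH1* (-0.65, adjusted *p* = 0.0256, all in edgeR with treatment as a term). *GLI1*, a target of the pathway, had 896 counts before and 446 after treatment in BT-16, with 270 before and 239 after it in CHLA-266, and *GLI3*, mostly a repressor, had 1063, 1783, 161 and 556 counts in the same order. The receptor gene *PTCH1*, also a target, was not called (log2 fold change 0.42, edgeR adjusted *p* = 0.255), but it was with the line as a block (0.46, edgeR adjusted *p* = 0.0240), as was *GLI3* (log2 fold change 1.49, edgeR adjusted *p* = 1.8e-05, against 0.217 without it). With the block, 4 Hedgehog genes were called higher and 1 lower in all. *EVC*, a ciliary protein with the highest level of the list, was not called (-0.28, adjusted *p* = 0.231 in edgeR).

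Around *FABP7*, 5 of 17 listed radial glia and neural progenitor genes were called higher and 4 lower, with a median log2 fold change of 0.82. *GFAP*, an intermediate filament of astroglia, had 6 counts before and 167 after treatment in BT-16, with 4 before and 78 after it in CHLA-266 (log2 fold change 4.81, edgeR adjusted *p* = 0.00307). *SLC1A3*, a glutamate transporter of glia, rose from 1179 to 1809 counts in BT-16 cells and 1045 to 3393 in CHLA-266 cells (log2 fold change 1.50, edgeR adjusted *p* = 0.00754), and *PROM1*, a surface marker of progenitors, from 5 to 61 counts in BT-16 cells and 3 to 67 in CHLA-266 cells (log2 fold change 4.22, edgeR adjusted *p* = 0.0128). The abundant genes *PTPRZ1*, a receptor phosphatase (-1.25, adjusted *p* = 0.00172), *NOTCH1*, a receptor (-0.70, adjusted *p* = 0.0122), and *NES*, the filament nestin (-0.74, adjusted *p* = 0.0157, all in edgeR), fell. *VIM*, the most abundant of the list, was not called (log2 fold change 0.04, edgeR adjusted *p* = 0.920). Of 7 other fatty acid binding proteins with a nonzero total, 0 were called by edgeR (2 were higher at an unadjusted *p* value under 0.05, and DESeq2 and limma each called 1), and their median of 4.62 was 2.32 with 5 genes set to their lower bounds. *FABP3*, the most abundant of these, had a log2 fold change of -0.06 (adjusted *p* = 0.930 in edgeR).

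Of 4 CLIC genes besides *CLIC6* (median log2 fold change 0.65), 2 were called higher, *CLIC3* with 99 counts before and 242 after treatment in BT-16 and 63 before and 226 after it in CHLA-266 (log2 fold change 1.79, edgeR adjusted *p* = 0.0184) and *CLIC5* from 0 to 68 counts in BT-16 cells and 9 to 126 in CHLA-266 cells (4.61, adjusted *p* = 0.0250 in edgeR). *CLIC1*, the abundant member of that family, had 32873 counts before and 18399 after treatment in BT-16, with 21782 before and 13949 after it in CHLA-266, and its log2 fold change of -0.50 was called with the cell line as a block (adjusted *p* = 0.00753) and not without it (0.0767 in edgeR). With the block, 2 CLIC genes were called higher and 2 lower. Of 16 choroid plexus genes (median log2 fold change 1.94, or 1.63 with 4 genes at their lower bounds), 1 was called higher, *ECRG4*, with 0 counts before and 38 and 8 counts after treatment (adjusted *p* = 0.0488, and 0.0938 with the block in edgeR). With the block, 1 choroid plexus gene was called higher and 1 lower, the latter *OTX1*. Of 10 genes of the retinal pigment epithelium, a tissue that expresses *OTX2* and *MITF*, 4 were called higher and 0 lower (median log2 fold change 3.11, or 3.08 with 3 genes at their lower bounds, 0 lower at an unadjusted *p* value under 0.05, and 0 in DESeq2 and limma). With the block, edgeR called 1 of them lower, *SERPINF1*, a secreted factor and the most abundant of the list (log2 fold change -0.43 and adjusted *p* = 0.178 without the block, -0.42 and 0.0247 with it). The genes called higher included *RPE65*, the isomerase of the visual cycle, from 1540 to 1640 counts in BT-16 cells and 598 to 2440 in CHLA-266 cells (log2 fold change 1.23, adjusted *p* = 0.0364), *SIX3*, an eye-field factor, from 3 to 72 counts in BT-16 cells and 0 to 46 in CHLA-266 cells (adjusted *p* = 0.0163), and *SIX6*, a factor of retina, from 2 to 30 counts in BT-16 cells and 1 to 48 in CHLA-266 cells (adjusted *p* = 0.0261, and 0.0551 with the block, all in edgeR).

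**Figure D4:**
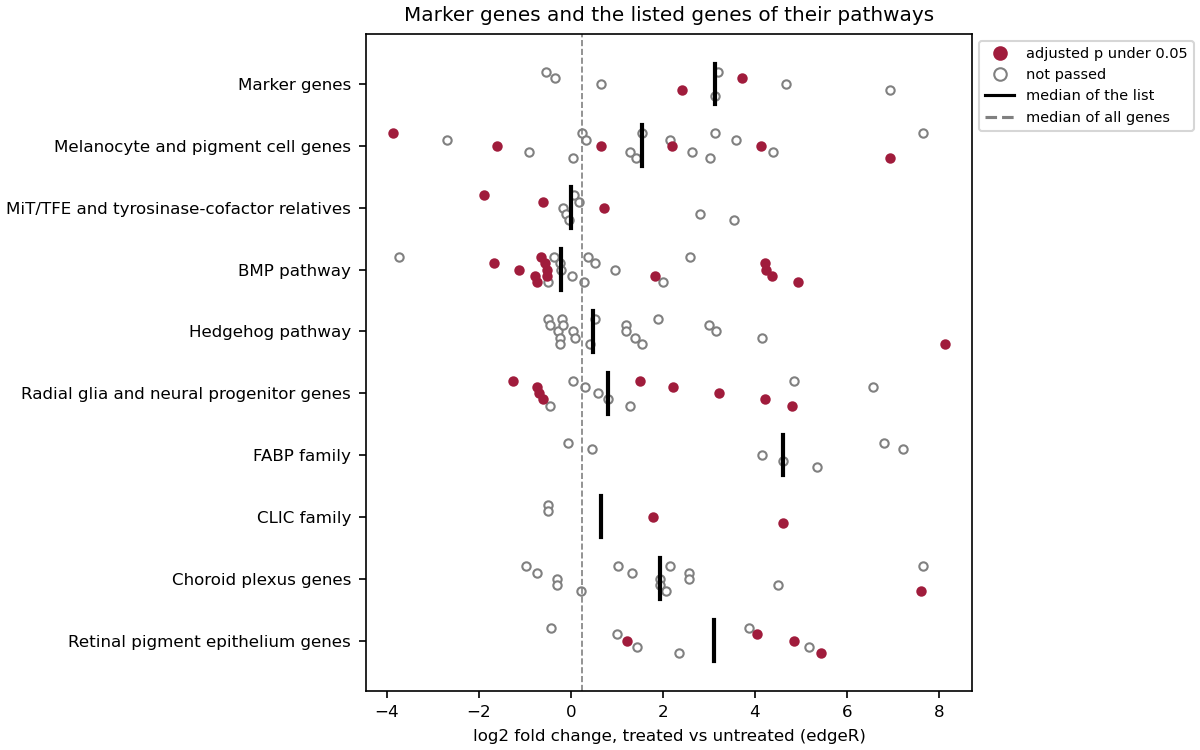
Log2 fold change of treated to untreated cells in edgeR (horizontal axis) for the 9 marker genes and for each gene of 9 lists around them (rows, 1 point per gene). Filled points have an adjusted *p* value under 0.05, black bars are list medians, and the dashed line is the median of all genes at 0.24; called genes lie on both sides of 0 among melanocyte, BMP and radial glia genes, and above 0 in this fit without the block among Hedgehog, CLIC, choroid plexus and retinal pigment epithelium genes.

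Markers of cells that a culture of AT/RT-MYC cells should not hold were measured as well. Of 9 macrophage genes 3 were called higher, beside the 16.1% of all genes given above, or 2 with the cell line in the model, where *C1QA* was lost (edgeR adjusted *p* = 0.0463 without and 0.109 with it). Their summed level was 6.57 CPM before and 10.4 CPM after treatment in BT-16, with 3.41 before and 7.26 after it in CHLA-266. The log2 fold change was positive for 7 of the 9 macrophage genes. *AIF1* had 0 counts before and 27 and 55 counts after treatment. *CD163* had 8 counts before and 56 after treatment in BT-16, with 0 before and 63 after it in CHLA-266 (edgeR adjusted *p* = 0.0445). *CD68*, a macrophage marker, was near 0 throughout, with 3 and 1 counts before treatment and 0 in both treated libraries. Of 8 fibroblast and endothelial genes 3 were called higher (4 with the block), with a summed level of 9.25 CPM before and 27.5 CPM after treatment in BT-16 and 4.48 before and 13.7 after it in CHLA-266, and *VWF*, an endothelial gene, rose from 45 to 405 counts in BT-16 cells and 40 to 216 in CHLA-266 cells (adjusted *p* = 0.00222 in edgeR). Among 11 other genes named for AT/RT-MYC, mostly of the HOX clusters, *HOXB9* was called higher (log2 fold change 4.07, edgeR adjusted *p* = 0.0041) and *MYC* lower. Their part in the results for the 9 marker genes was not tested.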

How the data were processed

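RNA of the 4 libraries was sequenced with paired ends after a stranded kit that amplifies cDNA. Per the methods and the submitters' processing notes, the authors demultiplexed with bcl2fastq 2.20, removed adapters, used STAR for alignment to hg38 and counted reads for each gene, and genes of the sex chromosomes and repeated symbols were removed. The STAR version, the annotation and the handling of read pairs and strand are not given in the sources used here. The deposited table holds estimated counts for each symbol, not normalized. In 2 genes, 5 values with decimals were set to the nearest whole number. The log2 values deposited by the authors are variance-stabilized (VST) counts of 17553 genes with a total of at least 10, used here only in an alternative.

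Of 18449 symbols, 383 had a total of 0. The other 18066 were tested with edgeR 4.0.16 (quasi-likelihood, TMM, Benjamini-Hochberg adjustment) in R 4.3.3, treated against untreated without the cell line, and CHLA-266 against BT-16 with treatment as a term. TMM factors ran from 0.919 to 1.12. The model had a common dispersion of 0.14, or 0.0712 when the line was added as a block. The cell line pairs the libraries, and deviations from the condition means correlated at 0.254 across 12620 genes, which are not independent replicates. Alternatives were the block, DESeq2 1.42.0 with and without it, other normalizations, filters on low counts, limma 3.58.1 on the VST values, halved counts, and each library left out. Ratios within a line have exact Clopper-Pearson 95% intervals. Exon lengths come from GENCODE on hg38. Sequences come from RefSeq.

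The 9 genes and all lists were chosen with earlier results of these data known. Named were all 9 genes, paralogs of *TYR*, *MITF*, *OTX2* and *GLI2*, *PTCH1*, *MYC* and *SMARCB1*. The rule for each list was the gene of highest mean CPM and up to 3 called genes per direction by adjusted *p*. Not every gene that this rule selects is printed, and *CD68* was named outside it. *PTCH1* was added after its value was seen. Fitting was also tried on simulated counts, but neither the settings nor the outcome are given here. The calls above therefore do not rest on that trial.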

Additional observations from a re-analysis of the deposited data

Results flagged for a closer look

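For 7 of the 173 marker and list genes, the ratios in BT-16 and CHLA-266 had opposite signs with intervals that did not include 0. They were *VIM* and *CSF1R*, each the most abundant of its list, and *MC1R*, *CHRD*, *SHH*, *GPR161* and *PTPRC*, which were named after their values were seen. The log2 ratio of treated to untreated cells for *VIM*, the gene of the filament vimentin in the radial glia list, was -0.33 in BT-16 cells but 0.29 in CHLA-266 cells. That of *CSF1R*, a receptor of macrophages in the macrophage list, was 1.04 in BT-16 cells but -0.52 in CHLA-266 cells. Whether the lines differed was not tested, because each had 1 library per condition. None of the 9 marker genes was among them.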

How the results depend on the processing

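*MITF* kept its direction and its call in all 10 alternatives with all 4 libraries. Of the 9 marker genes 2 were called, against 1 with the line as a block, 4 in DESeq2 without it (*TYR*, *DCT*, *MITF* and *CLIC6*), 1 of the 4 left by a minimum of 10 counts in every library, and 1 to 2 when a library was left out. Of 130 genes in the other pathway lists 39 were called (23 higher and 16 lower), against 21 of the 79 left by that minimum, 49 with the block (26 higher and 23 lower), 52 in DESeq2 without it (36 higher and 16 lower), 50 in DESeq2 with it, and 25 to 44 when a library was left out, 25 without untreated BT-16. The split was 36 to 5 with upper-quartile normalization and 29 to 6 with library totals, which put the median log2 fold change of all genes at 0.59 and 0.47 in place of 0.24. Beside these counts, the share of all genes called was known only for edgeR without and with the block. For DESeq2 and the other fits it was not counted, so their counts cannot be set against it. Without treatment as a term, the difference between the lines, never called, turned to -0.0933 for *TYR* and -0.22 for *BMP4*. Leaving out a library gave no residual degrees of freedom in the comparison of the lines and no test. The causes were not tested. Where a gene had 0 counts in an untreated library, its depth sets a lower bound and no size of the change.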
